A study of Homo sapiens with 3 samples.

Results

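The genes described here encode enzymes that make NADPH or feed its production: PGLS, PGD, TKT and TALDO1 of the pentose phosphate pathway, the malic enzymes ME1 and ME2, the isocitrate dehydrogenases IDH1 and IDH2, and the transhydrogenase NNT. They were chosen by name, and each of the 9 names matched 1 of the 34520 rows of the deposited table. RNA was sequenced from SK-N-BE(2), an established human neuroblastoma cell line with amplified MYCN, in 1 control library labelled Ctrl, 1 library of cells given arsenic trioxide (ATO) at 2 µM and 1 of cells given ATO at 4 µM, both for 12 h. The FPKM values of the control are also headed 12 h. All cells were grown in the same medium, which contained pyruvate, and the labels name no vehicle for the control. The series studies ATO as a compound that keeps N-Myc, the product of MYCN, from DNA, and the comparisons ask how the transcripts of these enzymes differed from the control at each dose. Each group was a single library, so no difference below has a replicate check, and no SD, SE or p-value is given.

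NADPH is the electron donor with which cells reduce oxidised glutathione and thioredoxin and build fatty acids, cholesterol and deoxynucleotides. In the cytosol it comes from the oxidative steps of the pentose phosphate pathway, where PGLS (6-phosphogluconolactonase) hydrolyses the lactone and PGD (6-phosphogluconate dehydrogenase) reduces NADP, and from ME1 and IDH1. TKT (transketolase) and TALDO1 (transaldolase) make no NADPH themselves but return pentose phosphates to glycolysis, so that glucose carbon can pass through the oxidative steps again. In mitochondria NADP is reduced by IDH2, by NNT, which uses the proton gradient and NADH, and to some extent by ME2, which works largely with NAD. The genes PGD, TKT, TALDO1, ME1 and IDH1 are known targets of NRF2, the transcription factor of the oxidative stress response, which binds antioxidant response elements together with small MAF proteins.

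To show the sequence upstream of these genes, the 250 bases before each RefSeq start (GRCh38.p14) were searched on both strands for the core of the antioxidant response element, TGACNNNGC, and for the E-box CACGTG that MYC proteins bind. The 9 genes had 11 such windows, since IDH1 and NNT each have 2 listed starts. The antioxidant core was found once each in PGD, ME1 and the second IDH1 window. TALDO1 and TKT, whose RNA was also higher after ATO (below), had none. Nor did the first IDH1 window or those of PGLS, ME2, IDH2 and NNT. The core was thus in 3 of the 11 windows, from 3 of the 9 genes, and 10.9% of all 35116 windows of that length hold it. The E-box was found in 1 of the 11 windows, the second of NNT, against 6.34% of all windows. The windows of PGD, ME1 and IDH1 are printed 5′ to 3′ because they carry the antioxidant core, and those of ME2 and IDH2 because they belong to the mitochondrial isoenzymes whose RNA differed from that of ME1 and IDH1. Capitals mark the core, which in PGD lies on the opposite strand and reads TGACATTGC there.
PGD, chr1:10398814-10399063, + strand: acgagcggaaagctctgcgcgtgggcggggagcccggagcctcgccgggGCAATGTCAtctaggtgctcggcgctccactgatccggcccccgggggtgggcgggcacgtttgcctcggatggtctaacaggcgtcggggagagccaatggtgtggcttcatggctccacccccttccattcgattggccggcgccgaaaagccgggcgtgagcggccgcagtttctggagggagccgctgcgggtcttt
ME1, chr6:83431052-83431301, - strand: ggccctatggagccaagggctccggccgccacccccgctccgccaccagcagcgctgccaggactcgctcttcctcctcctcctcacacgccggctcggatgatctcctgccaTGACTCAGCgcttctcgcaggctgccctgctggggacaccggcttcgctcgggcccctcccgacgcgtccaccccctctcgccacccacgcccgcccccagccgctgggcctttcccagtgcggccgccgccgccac
IDH1, chr2:208255072-208255321, - strand: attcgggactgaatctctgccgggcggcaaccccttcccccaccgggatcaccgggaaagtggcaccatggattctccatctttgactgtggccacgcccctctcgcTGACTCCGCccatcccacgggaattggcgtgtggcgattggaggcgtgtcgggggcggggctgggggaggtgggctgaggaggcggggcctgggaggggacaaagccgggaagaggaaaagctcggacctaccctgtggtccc
ME2, chr18:50878868-50879117, + strand: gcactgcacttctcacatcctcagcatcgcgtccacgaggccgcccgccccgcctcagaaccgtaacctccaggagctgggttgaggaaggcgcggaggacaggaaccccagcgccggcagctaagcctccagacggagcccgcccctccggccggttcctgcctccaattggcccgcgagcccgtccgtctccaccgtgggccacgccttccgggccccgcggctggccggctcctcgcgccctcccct
IDH2, chr15:90100622-90100871, - strand: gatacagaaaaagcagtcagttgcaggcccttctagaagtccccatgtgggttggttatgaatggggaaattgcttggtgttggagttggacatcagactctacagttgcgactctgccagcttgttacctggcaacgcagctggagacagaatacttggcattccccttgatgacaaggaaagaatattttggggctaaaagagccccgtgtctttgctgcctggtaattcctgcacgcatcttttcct
The core starts 201 bases before the start of PGD, 137 bases before that of ME1 and 143 bases before that of IDH1. These matches are letters in a window and were not tested for binding. The printed windows were chosen in part by the RNA values, so they do not show whether the core goes with a higher level.

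After ATO the transcripts of the cytosolic enzymes PGD, ME1, IDH1 and TALDO1 were higher, those of TKT were somewhat higher, and those of PGLS and of the mitochondrial ME2, IDH2 and NNT did not pass the size rule at either dose and lay below the control at 4 µM. Values are FPKM, fragments per kilobase of transcript scaled to mapped library size, and a log2 fold is that of FPKM + 1. The size rule asks for a log2 fold of 1 or more in either direction. All 9 genes had more than 1 FPKM in every library and so were among the 12433 rows considered, those with a mean of at least 1 FPKM. At 2 µM, 2 of the 9 were higher by the size rule and 0 lower, where 1.16% of all considered rows were higher and 0.901% lower. At 4 µM, 4 of the 9 were higher and 0 lower, where 4.19% of rows were higher and 5.27% lower. The median log2 fold of the 9 was 0.46 at 2 µM and 0.36 at 4 µM, beside 0.01 and -0.13 for all considered rows. Both comparisons use the same control library, so they are not independent of each other.

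**Figure D1:**
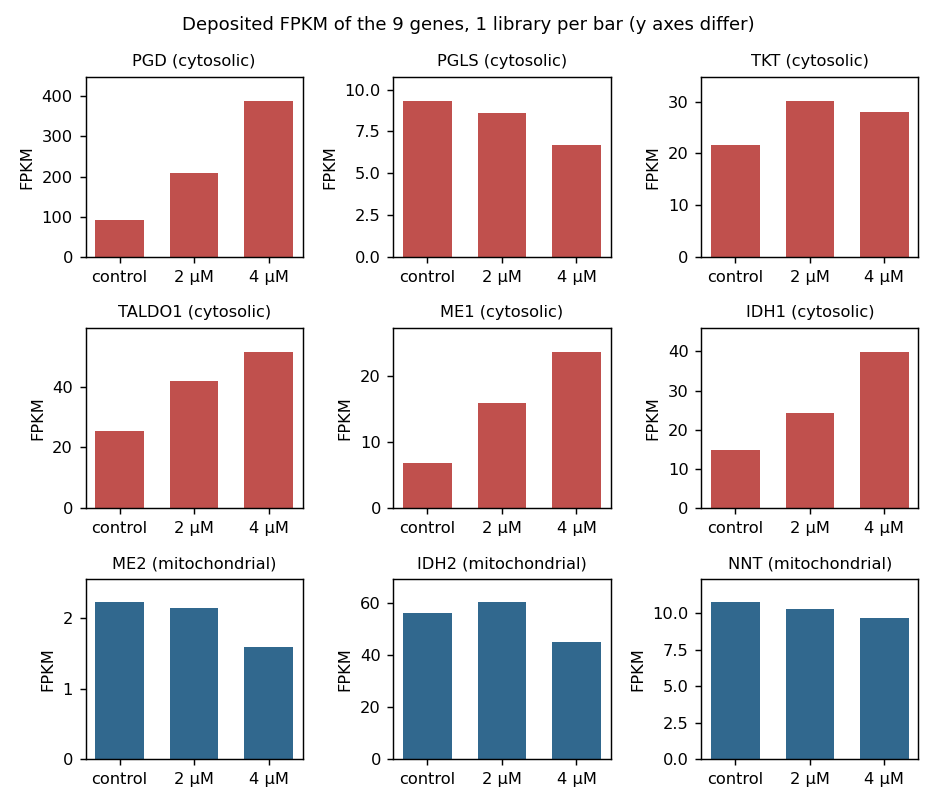
Deposited FPKM (y axis, linear from 0, a different scale in each panel) of the 9 genes in the control, 2 µM and 4 µM libraries (x axis), 1 library per bar and no error bars. Red bars are cytosolic and blue bars mitochondrial enzymes; PGD, TALDO1, ME1 and IDH1 step up with dose, whereas ME2, NNT and PGLS step down and TKT and IDH2 are highest at 2 µM.

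Of the oxidative pentose phosphate genes, PGD had 91.9 FPKM in the control, 208 FPKM at 2 µM and 388 FPKM at 4 µM. Each dose step was upward, and at 4 µM the level was 4.22 times that of the control. The log2 fold was 1.17 at 2 µM and 2.07 at 4 µM, so that 56.7% of the log2 difference was already present at the lower dose. By level PGD was the 236th highest of the considered rows in the control, the 85th at 2 µM and the 44th at 4 µM. At 4 µM only 79 of the 12433 rows had a larger log2 fold. PGLS, whose product acts just before PGD, did not follow it. It had 9.34 FPKM in the control, 8.60 FPKM at 2 µM and 6.71 FPKM at 4 µM, and its log2 folds were -0.11 and -0.42. Neither passed the size rule, and 26.8% of considered rows had a lower log2 fold than PGLS at 4 µM.

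The genes of the non-oxidative branch differed from each other in their course over dose. TALDO1 had 25.2 FPKM in the control, 41.8 FPKM at 2 µM and 51.6 FPKM at 4 µM. Its log2 fold of 0.71 at 2 µM was below the size rule and that of 1.00 at 4 µM just past it, and with a pseudocount of 5 FPKM the latter was 0.90 and no longer passed. TKT had 21.6 FPKM in the control, 30.2 FPKM at 2 µM and 28.0 FPKM at 4 µM. It was highest at the lower dose, with log2 folds of 0.46 and 0.36, and it passed the size rule at neither. Still, 92.4% of considered rows had a smaller log2 fold than TKT at 2 µM and 82.0% at 4 µM. The TKT relatives TKTL1 and TKTL2 were at most 0.0210 FPKM in any library.

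Among the malic enzymes, which turn malate into pyruvate, the cytosolic ME1 was higher with dose and the mitochondrial ME2 was not. ME1 had 6.84 FPKM in the control, 15.9 FPKM at 2 µM and 23.8 FPKM at 4 µM. These levels were 2.33 and 3.47 times the control, and the log2 folds of 1.11 and 1.66 both passed the size rule. With a pseudocount of 5 FPKM the value at 2 µM was 0.82 and did not pass. ME2 had 2.23, 2.14 and 1.59 FPKM in the same order, log2 folds of -0.04 and -0.32. ME3, the other mitochondrial malic enzyme, had 2.00, 2.01 and 1.41 FPKM. Of the summed FPKM of ME1, ME2 and ME3, ME1 therefore made up 61.8% without ATO, 79.3% at 2 µM and 88.8% at 4 µM. The ratio of ME1 to ME2 went from 3.07 to 7.44 and 14.9.

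The isocitrate dehydrogenases that use NADP showed the same contrast between compartments from a different starting point. IDH1, the cytosolic and peroxisomal enzyme, had 14.9 FPKM in the control, 24.3 FPKM at 2 µM and 40.0 FPKM at 4 µM. Its log2 fold was 0.67 at 2 µM, below the size rule, and 1.37 at 4 µM, past it, and 49.0% of the log2 difference at 4 µM was present at 2 µM. IDH2, the mitochondrial enzyme, had 56.1 FPKM in the control, 60.2 FPKM at 2 µM and 45.1 FPKM at 4 µM. It was a little above the control at the lower dose and below it at the higher, with log2 folds of 0.10 and -0.31 that did not pass the size rule. IDH2 was thus the more abundant of the pair in the control, where the ratio of IDH1 to IDH2 was 0.265. At 4 µM that ratio was 0.887, and IDH1 made up 47.0% of their sum against 21.0% in the control. The subunit genes of the NAD-linked isocitrate dehydrogenase of the citric acid cycle passed the size rule at neither dose. IDH3A, IDH3B and IDH3G had log2 folds of 0.45, 0.09 and -0.03 at 2 µM and of -0.01, -0.06 and -0.30 at 4 µM.

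**Figure D2:**
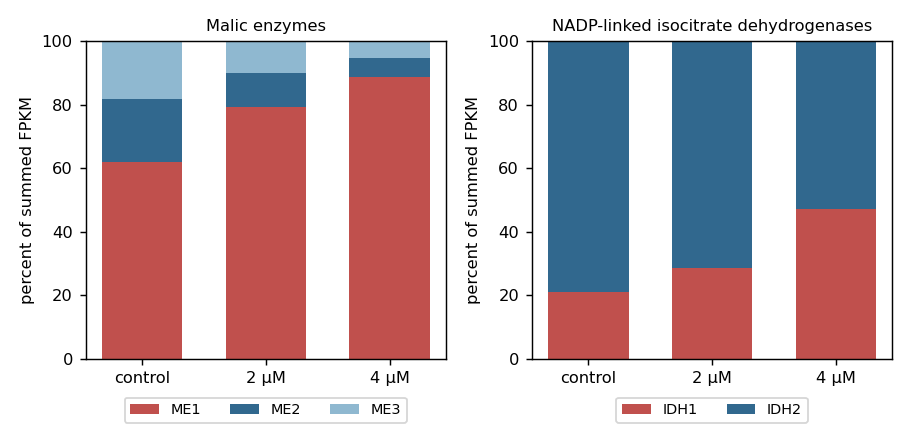
Share of summed FPKM (y axis, percent) held by each malic enzyme gene (left) and by IDH1 and IDH2 (right) in the 3 libraries (x axis). The cytosolic ME1 goes from 61.8% to 88.8% and IDH1 from 21.0% to 47.0% between the control and 4 µM.

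NNT, which hands electrons from NADH to NADP across the inner mitochondrial membrane, had 10.8 FPKM in the control, 10.3 FPKM at 2 µM and 9.69 FPKM at 4 µM. Its log2 fold of -0.14 at 4 µM lay next to the median of all considered rows, and between-library scaling made it 0.02 (median-of-ratios) or 0.04 (upper-quartile). Scaling moved the median of all considered rows at 4 µM from -0.13 to 0.01 and 0.03, and the other 8 genes kept their sign against the control at both doses under either scaling. NNT overlaps the antisense gene NNT-AS1, which had 3.84, 3.58 and 3.12 FPKM, and IDH1 overlaps IDH1-AS1, which had at most 0.443 FPKM. Since the use of strand in counting is not stated, reads of such overlapping pairs cannot be told apart. The pseudogene PGDP1 had at most 0.113 FPKM in any library.

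**Figure D3:**
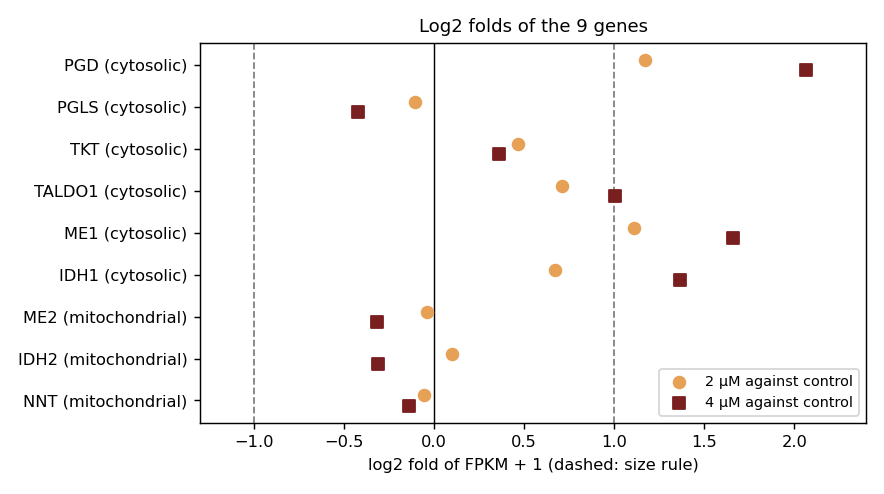
Log2 fold of FPKM + 1 against the control (x axis) for each of the 9 genes (y axis), circles for 2 µM and squares for 4 µM, with dashed lines at the size rule. PGD, ME1, IDH1 and TALDO1 lie at 1.00 to 2.07 at 4 µM, and PGLS, ME2, IDH2 and NNT lie at -0.42 to -0.14.

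By compartment, the 6 cytosolic genes had a median log2 fold of 0.69 at 2 µM and 1.19 at 4 µM, and the 3 mitochondrial genes had -0.04 and -0.31. The summed level of the cytosolic genes was 170 FPKM in the control, 329 FPKM at 2 µM and 538 FPKM at 4 µM, and that of the mitochondrial genes 69.1, 72.7 and 56.3 FPKM. The cytosolic genes held 71.1% of the sum of all 9 without ATO, 81.9% at 2 µM and 90.5% at 4 µM. PGD alone was 38.5%, 51.8% and 65.3% of that sum. Without PGD the cytosolic share was lower in each library but had the same order, at 53.0%, 62.4% and 72.7%. PGLS is the cytosolic gene that did not share this direction. These shares cover the 9 genes only and leave out other mitochondrial enzymes. Of those, ME3 had a log2 fold of -0.32 at 4 µM, and the folate-linked ALDH1L2 and MTHFD2 had 1.26 and 1.10.

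Between the doses themselves, 0 of the 9 genes passed the size rule at 4 µM against 2 µM, where 2.48% of all considered rows did. PGD came nearest with a log2 fold of 0.90, which became 1.03 (median-of-ratios) or 1.06 (upper-quartile) after scaling and then passed. IDH1 had 0.70, ME1 0.55 and TALDO1 0.30. TKT had -0.10, PGLS -0.32, ME2 -0.28, NNT -0.08 and IDH2 -0.41, and the values of TKT and NNT turned positive with either scaling.

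**Figure D4:**
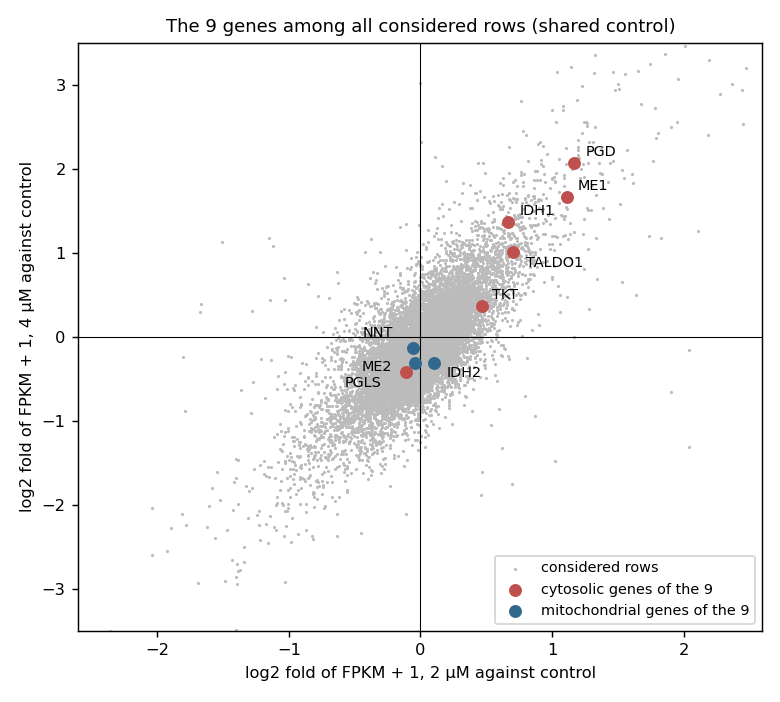
Log2 fold of FPKM + 1 at 4 µM (y axis) against that at 2 µM (x axis) for the considered rows (grey), with the 9 genes in red (cytosolic) and blue (mitochondrial); 10 rows lie outside the axes. Both axes share the control library, so the tilt of the grey cloud is no result. PGD and ME1 stand at the upper right, and ME2, IDH2, NNT and PGLS stand inside the main cloud.

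The counting precision of these values could be estimated only roughly. From the spacing of low values, and taking the median coding transcript length of each gene in GENCODE 29, the lowest counts were about 69.6 fragments for ME2 and 77.3 fragments for PGLS, both at 4 µM, and the highest about 5275 fragments for PGD. The counting error of the log2 ratio at 4 µM against control was then about 0.23 for ME2, 0.21 for PGLS and 0.17 for NNT, and between 0.05 and 0.08 for the other 6 genes. The log2 ratio of FPKM without a pseudocount was -0.49 for ME2 and -0.48 for PGLS, 2.15 and 2.23 such errors, and -0.15 for NNT, 0.867 errors. These errors leave out the variation between cultures, which was not measured. They also depend on the length taken, 0.754 kb for NNT and 0.767 kb for PGD, and a longer length would make them smaller.

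The other genes of the pentose phosphate pathway did not go with PGD and TALDO1. Of 12 such genes 8 were considered, 0 were higher and 1 was lower at 4 µM, and their median log2 fold was 0.09 at 2 µM and -0.51 at 4 µM. Of all considered rows, 4.19% were higher and 5.27% lower at 4 µM. H6PD, which carries out the first oxidative steps in the endoplasmic reticulum, had 7.82 FPKM in the control, 4.63 FPKM at 2 µM and 3.20 FPKM at 4 µM (-1.07 as a log2 fold), and with median-of-ratios or upper-quartile scaling, or a pseudocount of 5 FPKM, it no longer passed the size rule. The ribose phosphate genes lay below the control but short of the rule, with -0.60 for RPIA, the isomerase, and -0.28 for RPE, the epimerase. PRPS1 and PRPS2, which carry ribose phosphate on to nucleotide synthesis, had -0.77 and -0.53. TIGAR, a phosphatase known to steer glucose into the pathway, had 1.28, 2.08 and 1.86 FPKM (0.33 at 4 µM). In upper glycolysis 3 of 9 considered genes were higher and 0 lower at 4 µM (median 0.67). These were the hexokinase genes HK1 (1.38) and HK2 (1.00) and the phosphofructokinase gene PFKP (1.02). With a pseudocount of 5 FPKM HK2 (0.89) and PFKP (0.96) no longer passed, which left 1.

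Genes that share or deliver substrates or cofactors of the 9 enzymes mostly lay below the control at 4 µM, short of the size rule. The median of all considered rows was -0.13 as deposited, and 4.19% of them were higher and 5.27% lower by the rule. In the list of related dehydrogenases 0 of 7 considered genes passed the rule (median -0.30, and -0.14 or -0.12 after median-of-ratios or upper-quartile scaling), with MDH2 at -0.69 and MDH1 at -0.55, the mitochondrial and cytosolic malate dehydrogenases. Of 10 considered genes of NAD kinases and NAD supply 0 passed (median -0.47, and -0.33 or -0.31 after the same scalings). NADK, the cytosolic kinase that makes NADP from NAD, had 16.4 FPKM in the control, 14.8 FPKM at 2 µM and 10.3 FPKM at 4 µM (-0.63), and the mitochondrial NADK2 had -0.44. NAPRT and NMNAT2, which act in NAD synthesis, had -0.74 and -0.63, and NAMPT, the enzyme of nicotinamide salvage, had 0.53. Among 15 carriers and partners 1 was higher and 1 lower (median -0.49, and -0.34 or -0.32 after scaling). The lower one was SLC25A10, the dicarboxylate carrier (-1.26), which did not pass with a pseudocount of 5 FPKM (-0.63), and SLC25A11, the oxoglutarate carrier, had -0.87. The higher one was GOT1, the cytosolic aspartate aminotransferase, with 14.3, 19.4 and 48.9 FPKM (1.71).

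The list of NADPH-using reductases and the list for NADPH-using synthesis differed in direction at 4 µM. Of all considered rows, 4.19% were higher and 5.27% lower at that dose. Both lists were chosen with earlier results of these data known, and the contrast was not tested. Of 14 reductases of redox defence 12 were considered, and 10 were higher and 0 lower at 4 µM, with a median log2 fold of 0.96 at 2 µM and 1.61 at 4 µM. TXNRD1, the cytosolic thioredoxin reductase, had 70.5 FPKM in the control, 172 FPKM at 2 µM and 299 FPKM at 4 µM (2.07 as a log2 fold), and its mitochondrial relative TXNRD2 had -0.31. BLVRB, a biliverdin and flavin reductase, had the largest log2 fold of the list (from 1.52 FPKM without ATO to 13.2 FPKM at 4 µM), and AIFM2, a ubiquinone reductase, and AKR1C1, an aldo-keto reductase, had 2.09 and 2.07. GSR, the glutathione reductase, had 22.5, 47.8 and 76.8 FPKM (1.73). AKR1C1, AKR1C2 and AKR1C3 are close copies of each other and may share reads. Of 14 genes listed for NADPH-using synthesis 13 were considered, with a median log2 fold of -0.11 at 2 µM and -0.63 at 4 µM. The latter is the value of LSS, a listed cyclase that uses no NADPH. By the size rule 0 of the 13 were higher and 4 lower at 4 µM. The lower ones were ALDH18A1 and PYCR3 of proline synthesis (-1.29 and -1.14), DHCR7 of cholesterol synthesis (-1.19) and FASN, the fatty acid synthase, which had 67.2 FPKM in the control, 46.3 FPKM at 2 µM and 30.1 FPKM at 4 µM (-1.13). With a pseudocount of 5 FPKM DHCR7 (-0.83) and PYCR3 (-0.50) no longer passed, and FASN did not pass with median-of-ratios (-0.97) or upper-quartile scaling (-0.95).

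**Figure D5:**
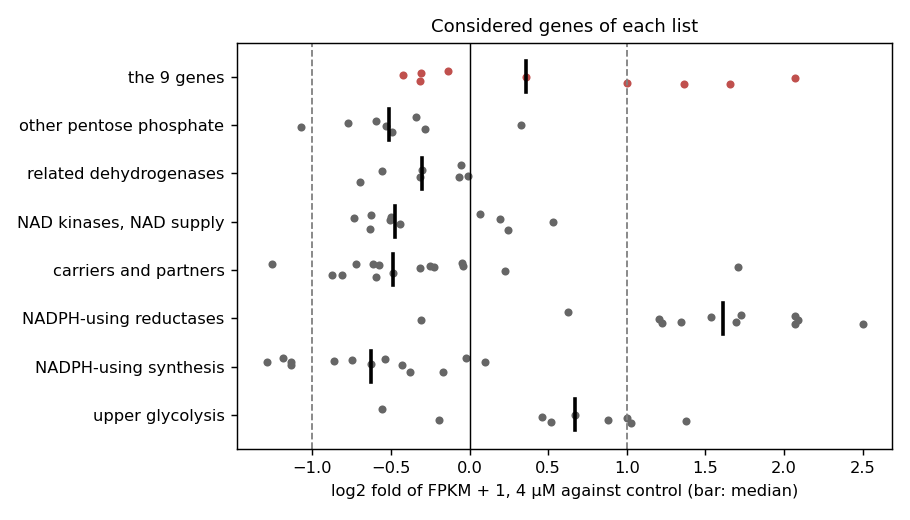
Differences as log2 fold of FPKM + 1 at 4 µM against control (x axis) of each considered gene in 8 lists (y axis), 1 point per gene, with a black bar at each list's median and dashed lines at the size rule. The medians are 0.36 for the 9 genes, 1.61 for the reductases and -0.63 for the synthesis enzymes.

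The gene of NRF2 itself, NFE2L2, had 13.1 FPKM in the control, 12.3 FPKM at 2 µM and 13.6 FPKM at 4 µM (0.05). Of the 6 genes listed as its regulators and partners, itself included, 3 were higher at 4 µM and 0 lower (median 0.84), beside 4.19% and 5.27% of all considered rows. The 3 were the small MAF genes MAFG (1.79), MAFF (1.71) and MAFK (1.04), the last of which did not pass with a pseudocount of 5 FPKM (0.50). KEAP1, which keeps NRF2 low in unstressed cells, had 0.58 and BACH1, a competitor for the same DNA elements, 0.63. Of the sirtuin genes SIRT2, SIRT3 and SIRT5, whose products deacylate metabolic enzymes, 0 of 3 passed the rule at 4 µM (median -0.47).

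Outside these lists, the 3 considered genes whose pair of log2 folds lay nearest to that of PGD, by Euclidean distance and over only 3 libraries, were LRRC4 (1.23 and 2.06, distance 0.062), SERPINB8 (1.11 and 2.05, distance 0.063) and KITLG (1.19 and 2.13, distance 0.064). All were far below PGD in level, at 1.72, 0.761 and 5.97 FPKM in the control and 10.3, 6.32 and 29.5 FPKM at 4 µM. At such levels the added 1 FPKM makes a log2 fold smaller. As ratios of FPKM, each of the 3 was higher at 4 µM by a larger factor than PGD, which had 4.22.

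The libraries had the markers of the labelled line, and some of these moved with dose. Of 10 neuroblastoma identity genes each was considered, and 8 were lower and 0 higher at 4 µM (median -1.35; 5 passed with a pseudocount of 5 FPKM), MYCN itself going from 832 to 412 and 197 FPKM. Among all considered rows 5.27% were lower and 4.19% higher at that dose. In bulk RNA, fewer cells of a kind and less RNA per cell cannot be told apart. The 10 markers of other cell types had a summed level of 105 FPKM in the control, 65.2 FPKM at 2 µM and 36.4 FPKM at 4 µM, and 5 of them were considered. Of these, 3 were lower at 4 µM, LUM, COL1A1 and DCN of fibroblasts, and 1 was higher, CD68 of macrophages (0.534, 3.69 and 4.87 FPKM). With a pseudocount of 5 FPKM 1 of these 4 passed, LUM. The fibroblast gene COL1A2 was not lower, at 0.391, 0.597 and 0.456 FPKM by rising dose, under the expression filter. No marker was at 0 in each library, but the defining leukocyte gene PTPRC had at most 0.0975 FPKM and the endothelial genes PECAM1 and CDH5 at most 0.686 and 0.507 FPKM. The 13 genes of the mitochondrial genome had a median log2 fold of -0.01 at 2 µM and -0.19 at 4 µM. The part of these shifts in the values of the 9 genes was not tested.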

How the data were processed

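Paired-end TruSeq libraries of total RNA from 3 cultures were sequenced, per the labels' protocols, 1 library per group. The authors deposited FPKM, fragments per kilobase of transcript scaled to mapped library size, for 34520 rows, per the file headers. Aligner, counter and annotation: not given in the sources used here. GRCm38 and mm10, which are mouse builds, are named in the submitters' processing notes, although symbols in the table are human, so no coordinates were taken from the table.

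Members were found by gene_name. A row was considered when its mean over the libraries reached 1 FPKM, which left 12433. Differences are log2 ratios of FPKM + 1, and the size rule asks for 1 or more in either direction. No test was possible without replicates. The fixed rule for naming genes took all 9 members, up to 4 genes per list that differed most at 4 µM in absolute log2 fold, any list gene past the size rule, and the 3 rows nearest to the member with the largest log2 fold; other list genes named for their role were chosen after their values were seen. The members and lists were chosen with earlier results of these data known.

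FPKM summed to 256459, 262632 and 246878 in the control, 2 µM and 4 µM libraries. Low values of single-transcript genes (GENCODE 29), multiplied by length, most often gave 0.0280, 0.0272 and 0.0282, which makes the depths 1.03 and 0.991 times the control. Within a tolerance of 0.01, 16.9%, 15.9% and 17.2% of them were whole multiples, and reads could not be recovered; fragment numbers assume 2 units per fragment. Promoter windows are from RefSeq (GRCh38.p14), where all 9 genes matched. Alternatives were 2 pseudocounts, 3 scalings, 2 filters and another size rule. Python 3.11.15, pandas 2.3.3 and numpy 2.4.6 were used, and the procedure was tested on simulated data.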

Additional observations from a re-analysis of the deposited data

How the results depend on the processing

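At 4 µM, 4 of the 9 genes passed the size rule, 3 with a pseudocount of 5 FPKM and 4 under each other alternative run, and no value past the rule changed sign. Of all considered rows 9.46% passed at 4 µM, and from 3.14% to 27.9% over the settings. At 2 µM, 2 of the 9 passed the size rule, 1 with a pseudocount of 5 FPKM and 4 with a size rule of 1.5-fold. Here 2.06% of all considered rows passed, and from 0.491% to 9.01% over the settings. At 4 µM against 2 µM, 0 passed, 1 with median-of-ratios scaling, 1 with upper-quartile scaling and 2 with a size rule of 1.5-fold. The share of all considered rows was 2.48%, and from 0.619% to 14.5% over the settings. The median log2 fold of the 9 at 4 µM was 0.36, and it was 0.52 with median-of-ratios scaling, 0.55 with upper-quartile scaling and 1.00 among the 7 that reached a mean of 10 FPKM. At 2 µM it was 0.46, and 0.67 among those 7. At 4 µM against 2 µM it was -0.08, and in the same settings 0.040, 0.063 and 0.30; the filter leaves out ME2 and PGLS, 2 genes below the control. The cytosolic share without PGD, an alternative chosen after seeing the data, was 53.0%, 62.4% and 72.7% against 71.1%, 81.9% and 90.5%. Since the share of all considered rows past the rule moved with the setting, an unchanged count of the 9 does not mean the same under each. With a pseudocount of 5 FPKM the genes past the rule at 4 µM went from 4 to 2 in the folate list, 4 to 2 in NADPH-using synthesis, 3 to 1 in upper glycolysis and 2 to 1 among carriers and partners. Fold differences of the low genes ME2 and PGLS are limited by depth. No paired analysis was possible because each group has 1 library.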

Other observations

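Folate-linked enzymes, another source of NADPH, also differed from each other, and the genes past the size rule lay the other way round by compartment from the malic enzymes and isocitrate dehydrogenases. Of 8 listed genes 6 were considered, and 3 were higher and 1 lower at 4 µM, with a median log2 fold of 0.80, or 0.24 with no expression filter. Among all considered rows 4.19% were higher and 5.27% lower at 4 µM. The 3 higher folate-linked genes encode mitochondrial enzymes. SHMT2, the serine hydroxymethyltransferase of mitochondria, had 29.2 FPKM in the control and, by rising dose, 54.0 and 84.4 FPKM (log2 fold 1.5 at 4 µM). ALDH1L2, which makes mitochondrial NADPH from formyl-tetrahydrofolate, had 9.43, 12.7 and 24.0 FPKM (1.26), and MTHFD2, the mitochondrial methylene-tetrahydrofolate dehydrogenase, had 16.9, 24.2 and 37.3 FPKM (1.10). Of the other mitochondrial members, MTHFD1L had 0.50, below the size rule, and MTHFD2L had -0.01 at 0.737, 0.623 and 0.725 FPKM, under the expression filter. The considered cytosolic members were below the control. MTHFD1, the cytosolic enzyme that can reduce NADP, had 15.1, 10.7 and 5.34 FPKM (-1.34), and SHMT1 had -0.86, below the size rule. The cytosolic ALDH1L1 lay under the expression filter, at no more than 0.113 FPKM in any library. With a pseudocount of 5 FPKM MTHFD2 (0.95) and MTHFD1 (-0.96), the 1 lower gene, no longer passed the size rule. The difference between compartments was not tested, since each dose has 1 library.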
